A study of Homo sapiens with 8 samples.

Results

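Expression of 9 genes for enzymes of nonessential amino acid metabolism was examined in C4-2, a castration-resistant subline of the human prostate cancer line LNCaP. The genes make asparagine (ASNS), aspartate (GOT1), proline (ALDH18A1 and PYCR1), glutamine (GLUL), alanine (GPT2) and cysteine (CBS and CTH), or link amino acid carbon to glycolysis (PCK2). They were chosen by name for these roles, with earlier results of these data known, so no test was made over the set. All 9 were found among 18892 gene rows, and all 9 were among the 11833 genes kept for testing. A kept gene had 1 RPM or more in 2 or more of the 4 libraries. RPM is a gene's reads scaled by the authors to a common library total. PolyA RNA had been sequenced from 2 libraries of cells transfected with shCDCA8, a short hairpin RNA against CDCA8, and from 2 libraries of cells transfected with shCTRL, a control hairpin. Both groups were C4-2 cells grown in RPMI 1640 with 10% serum and received no other treatment. The series also holds small RNA libraries of shEZH2 and shCTRL cells, which do not measure these messenger RNAs and were not used here.

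A cell can take up nonessential amino acids or make them from intermediates of glycolysis and the tricarboxylic acid cycle. Glutamate is the hub: aminotransferases pass its nitrogen to aspartate and alanine, glutamine synthetase adds ammonia to it, and its own carbon is reduced to proline. Asparagine synthetase takes nitrogen from glutamine, and the transsulfuration pathway carries sulfur from methionine to cysteine. When amino acids run short, the kinase GCN2 and the transcription factor ATF4 are known to raise transcription of ASNS, PCK2, PYCR1, CTH, GPT2 and many amino acid transporters and transfer RNA synthetases. Tumour cells, those of the prostate among them, are known to depend on several of these routes.

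The libraries of cells with the CDCA8 hairpin were scaled by totals of 52248230 and 55289855 reads, those of control cells by 53305010 and 46709612 reads, and 33.3% and 34.2% of these reads fell in the gene rows in shCDCA8 against 41.1% and 43.6% in shCTRL. CDCA8, which encodes borealin of the chromosomal passenger complex, stood at 3.98 and 3.94 RPM in shCDCA8 libraries and at 14.2 and 16.5 RPM in shCTRL libraries (log2 fold change -1.72 ± 0.135, SE, n = 2 against 2, adjusted p = 7.86e-07). The labels name 1 hairpin per target, so an off-target effect and loss of CDCA8 cannot be told apart. Nothing in the labels says that libraries of a group came from separate cultures, so the p-values measure only the spread between these libraries. All 8 markers of luminal prostate cells were kept, and of these 8, 5 fell and 2 rose. Among them KLK3, KLK2 and TMPRSS2 fell, KRT8 and KRT18 rose, and FOLH1 was not called (adjusted p = 0.656). Under median-ratio scaling, described below, FOLH1 was called higher (0.38, adjusted p = 0.0368), and 5 of the 8 fell and 3 rose. KLK3 was at 364 RPM or more in every library. Of 5 fibroblast markers 2 were kept and both fell, and the 5 summed to 4.56 and 5.21 RPM in shCDCA8 against 11.8 and 14.3 RPM in shCTRL. Of the 2 kept, PDGFRB (0.746 and 1.01 RPM in shCDCA8, 2.08 and 2.29 RPM in shCTRL) needed its shCTRL libraries to pass, so the filter favoured a fall. COL3A1, not kept, was higher in shCDCA8 (0.211 and 0.217 RPM) than in shCTRL (0.0188 and 0.171 RPM). DCN and LUM were under 0.1 RPM in all 4 libraries. The leukocyte and endothelial markers summed to 10.2 and 11.8 RPM in shCDCA8 against 11.1 and 14.3 RPM in shCTRL, most of it CD68 and VWF. These 2 were the kept genes of that list, and both were called, in opposite directions. CD68 rose, at 8.82 and 9.89 RPM in shCDCA8 against 5.80 and 7.88 RPM in shCTRL. VWF fell, at 1.36 and 1.84 RPM in shCDCA8 against 5.23 and 6.47 RPM in shCTRL. Of the others in that list, CD3E was at 0 in 3 libraries and PECAM1 at 0 in 2, and PTPRC and CDH5 were not analysed here. Of the liver and kidney markers, ALB, TAT and UMOD were under 0.1 RPM in every library. The list summed to 0.670 and 0.814 RPM in shCDCA8 against 1.76 and 2.01 RPM in shCTRL. Of its 5 genes 1 was kept, APOA1, which fell (0.517 and 0.705 RPM in shCDCA8, 1.37 and 1.33 RPM in shCTRL, adjusted p = 0.00237). APOA1 was kept only through its shCTRL libraries, so the filter favoured a fall. SLC34A1 was at 0.134 and 0.0543 RPM in shCDCA8 against 0.375 and 0.621 RPM in shCTRL. The fit was also run with libraries scaled to their reads in the gene rows, which called 3873 genes lower and 3985 higher. Under that scaling 8 enzyme genes were called, none of them higher, and CBS was not called (log2 fold change -0.14, adjusted p = 0.205). The part of the row share in the counts of the gene lists below was not tested, nor was the part of these markers in any result.

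All 9 enzyme genes were lower in shCDCA8 cells, and the 2 groups did not overlap for any of them. At an adjusted p under 0.05 (limma, Benjamini-Hochberg over all kept genes) 9 of 9 fell, where 47.6% of all kept genes fell and 66.4% were called in either direction. At least 2-fold falls were called for 6 of 9 genes, against 14.6% of all kept genes, and non-overlapping groups with shCDCA8 lower were seen for 56.8% of all kept genes. The median log2 fold change was -2.10 over the 9 genes and -0.27 over all kept genes. Together the 9 genes held 368 and 395 RPM in shCDCA8 libraries, against 1325 and 1473 RPM in shCTRL libraries. In bulk RNA, fewer cells that express a gene and less of its RNA per cell cannot be told apart.

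The median log2 fold change over all kept genes was -0.27 as deposited, so the fold changes and calls were also computed after median-ratio scaling. Ranks, the histogram and the nearest genes below are given as deposited only. This scaling divides each library by the median, over kept genes, of its ratio to the 4-library geometric mean. Over all kept genes this turned 5628 falls and 2224 rises into 3979 falls and 3931 rises, and the median log2 fold change to 0.01. Of the enzyme genes 8 of 9 still fell, against 33.6% of all kept genes, and 6 of 9 fell at least 2-fold, against 8.48%. CBS was the gene that lost its call. The median over the 9 genes was then -1.82.

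**Figure D1:**
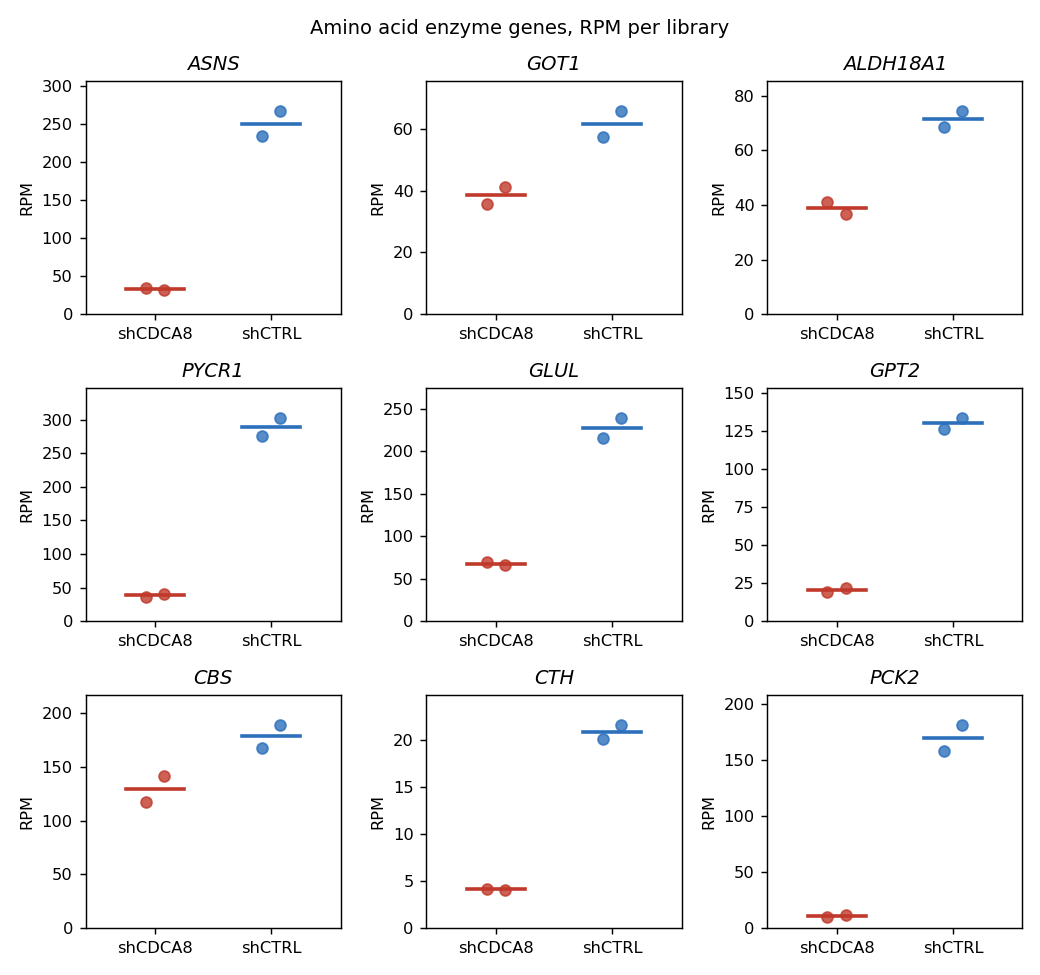
RPM of each enzyme gene in every library (y axis, linear from 0, own scale per panel), with shCDCA8 libraries in red and shCTRL libraries in blue; points are libraries and lines are group means. The shCDCA8 points lie below the shCTRL points in all 9 panels, farthest for PCK2 (9.99 and 11.4 against 158 and 182 RPM) and closest for CBS (118 and 141 against 168 and 189 RPM).

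The genes fell to very different degrees. PCK2 had the 2nd lowest log2 fold change of all 11833 kept genes, ASNS ranked 24th, PYCR1 26th and GPT2 45th from the lowest, CTH 134th and GLUL 319th. These ranks are of log2(RPM + 1) as deposited, a scale that understates changes of low genes, and positions shift with the method. With edgeR on recovered reads PCK2 was at -3.68, and SLC6A9 (-4.20), LOXL1-AS1 (-3.76) and SLC45A3 (-3.71) were lower. ALDH18A1, GOT1 and CBS lay inside the bulk of the genes, with 19.6%, 28.7% and 38.8% of all kept genes lower than they were. The order of ASNS (-2.88 ± 0.103) and PYCR1 (-2.87 ± 0.102) is within their SEs, and the SEs of GOT1 (-0.66 ± 0.116) and CBS (-0.46 ± 0.110) overlap too. RPM takes no account of transcript length, so levels are not ranked between genes here.

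**Figure D2:**
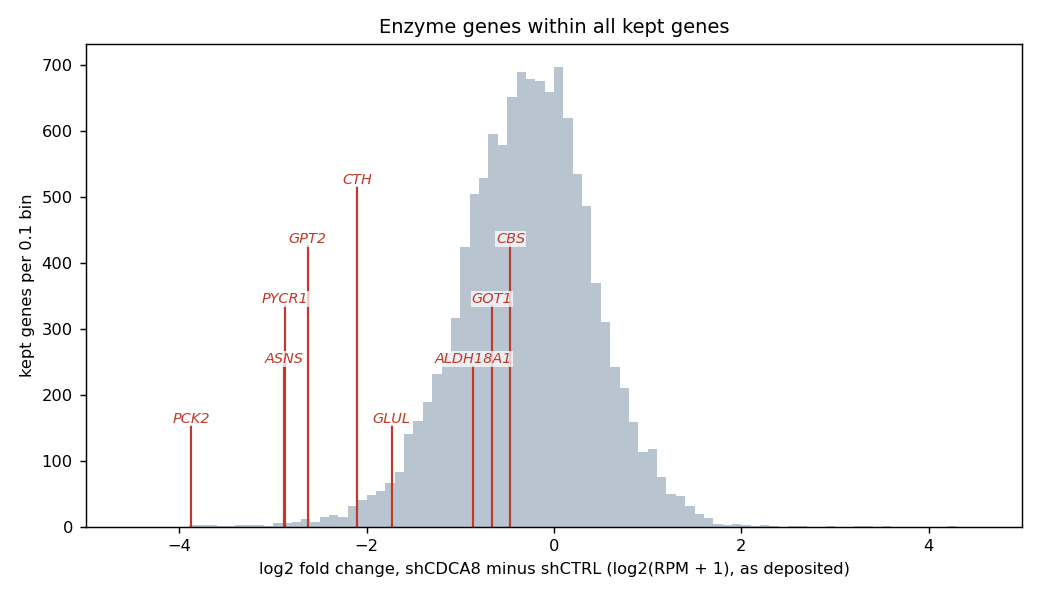
Histogram of log2 fold changes (x axis, shCDCA8 minus shCTRL) of all kept genes (y axis, genes per bin), with red lines at the 9 enzyme genes, whose heights only keep the names apart. PCK2, ASNS, PYCR1, GPT2, CTH and GLUL lie in the lower tail, at -1.73 or below, and ALDH18A1, GOT1 and CBS lie between -0.86 and -0.46, inside the bulk.

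Promoter sequences were looked up because genes that answer to amino acid shortage carry a short element, TGATGNAA in its common form, that ATF4 binds with a C/EBP partner. RefSeq promoters (GRCh38.p14, from 250 bases before to 50 bases after each start) were at hand for 7 of the 9 genes, 11 windows in all. GPT2 and PYCR1 had no window and were not searched. TGATGNAA on either strand was in 2 of them, at ASNS and at GOT1, and in 3.62% of all 35116 promoters. The motif CACGTG, the E-box of MYC-type factors, was in 1, at ALDH18A1, and in 7.26% of all promoters. A match describes letters in the window and not a bound site. The windows below are written 5′ to 3′ on the strand of the gene with the match in capitals, and PCK2, the gene with the largest fall, is shown as a window in which neither motif was found.
ASNS, chr7:97872423-97872522, minus strand: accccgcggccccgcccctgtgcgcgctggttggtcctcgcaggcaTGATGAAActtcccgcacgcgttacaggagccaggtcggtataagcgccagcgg
GOT1, chr10:99430769-99430868, minus strand: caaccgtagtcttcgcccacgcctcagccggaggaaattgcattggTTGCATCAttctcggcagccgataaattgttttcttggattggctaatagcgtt
ALDH18A1, chr10:95656794-95656893, minus strand: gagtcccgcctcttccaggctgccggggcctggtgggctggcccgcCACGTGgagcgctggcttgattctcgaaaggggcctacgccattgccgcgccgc
PCK2, chr14:24094211-24094310, plus strand: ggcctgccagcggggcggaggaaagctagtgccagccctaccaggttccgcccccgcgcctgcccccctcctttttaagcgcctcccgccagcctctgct

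The ASNS match lies 68 to 61 bases before the start and is the element long known as the nutrient-sensing response element of that gene. The GOT1 match lies 198 to 191 bases before the start, and its capitals are TGATGNAA read on the opposite strand. Both genes with the element fell, with log2 fold changes of -2.88 for ASNS and -0.66 for GOT1, as did the genes whose windows held no match.

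ASNS encodes asparagine synthetase, which makes asparagine from aspartate with nitrogen from glutamine. It had 34.0 and 32.0 RPM in shCDCA8 libraries (1776 and 1770 reads), against 234 and 267 RPM in shCTRL libraries (12458 and 12450 reads). Both shCDCA8 libraries were far below both shCTRL libraries, at 13.2% of the shCTRL mean, with a log2 fold change of -2.88 ± 0.103 (adjusted p = 3.18e-09). ASNSD1, an asparagine synthetase domain gene, moved the other way, at 21.3 and 17.0 RPM in shCDCA8 against 14.8 and 10.96 RPM in shCTRL (0.54 ± 0.158, adjusted p = 0.00962). That rise was no longer called without shCDCA8 replicate 1 (adjusted p = 0.0605) or without shCTRL replicate 2 (adjusted p = 0.0726). ASRGL1, an asparaginase, fell with ASNS (1.49 and 1.07 RPM in shCDCA8, 6.08 and 6.51 RPM in shCTRL). Reads of ASNS can be shared with its 5 annotated pseudogenes.

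GOT1, the cytosolic aspartate aminotransferase, had 35.8 and 41.2 RPM in shCDCA8 and 57.5 and 65.6 RPM in shCTRL (log2 fold change -0.66 ± 0.116, adjusted p = 0.000329). The groups did not overlap, and the shCDCA8 mean was 62.6% of the shCTRL mean. GOT2, the mitochondrial enzyme of the same reaction, also fell, at 50.7 and 54.4 RPM in shCDCA8 against 91.8 and 105 RPM in shCTRL (-0.89), although its reads can be shared with 7 annotated pseudogenes. GOT1 and GOT2 belong to the malate-aspartate shuttle, which carries reducing power into mitochondria. Of the 10 kept genes of aspartate, asparagine and the shuttle 6 fell and 4 rose, with the same counts under median-ratio scaling. Without ASNS and GOT1, 4 of 8 genes fell and 4 rose, under median-ratio scaling too. MDH2, the mitochondrial malate dehydrogenase, rose to 415 and 456 RPM in shCDCA8, against 256 and 298 RPM in shCTRL (0.65, adjusted p = 0.000109). Its cytosolic partner MDH1 (0.40) and the malate carrier SLC25A11 (0.49) also rose. The aspartate carriers SLC25A12 (-0.75) and SLC25A13 (-0.64) fell with the aminotransferases.

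ALDH18A1 and PYCR1 encode the first and last enzymes that turn glutamate into proline in mitochondria. PYCR1, a pyrroline-5-carboxylate reductase, had 36.3 and 40.9 RPM in shCDCA8 (1896 and 2262 reads), against 276 and 302 RPM in shCTRL (14700 and 14108 reads). Both shCDCA8 libraries were far below both shCTRL libraries, and the log2 fold change was -2.87 ± 0.102 (adjusted p = 3.18e-09). ALDH18A1, the pyrroline-5-carboxylate synthase, had 41.0 and 36.7 RPM in shCDCA8 and 68.4 and 74.2 RPM in shCTRL (-0.86 ± 0.108, adjusted p = 2.65e-05). Its shCDCA8 mean was 54.5% of the shCTRL mean, so the genes of 1 short pathway were at 13.4% and 54.5% of control. The difference between these falls was not tested.

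PYCR3 (the row PYCRL) encodes a reductase of the same reaction. PYCR3 had 38.4 and 45.5 RPM in shCDCA8 and 49.6 and 55.3 RPM in shCTRL (-0.32, adjusted p = 0.0302), and was not called in 7 of 12 alternatives, given here with their adjusted p-values. These were median-ratio scaling (-0.01, adjusted p = 0.913), scaling by reads in gene rows (0.992), edgeR (0.898), DESeq2 (0.947), no filter on low values (0.0577), and the fits without shCTRL replicate 2 (0.168) or shCDCA8 replicate 1 (0.26). PYCR1 had 0.945 and 0.899 times the RPM of PYCR3 in shCDCA8 libraries, against 5.56 and 5.46 times in shCTRL libraries. This plain ratio is taken within a library, so no scaling changes it. Of the 9 kept genes of proline and ornithine 8 fell and none rose (6 and 0 under median-ratio scaling). Without ALDH18A1 and PYCR1 these were 6 of 7 genes, and 4 lower and none higher under median-ratio scaling. PRODH, counted among the falls as deposited, was kept only through its shCTRL libraries. It had 0.612 and 0.742 RPM in shCDCA8, against 1.01 and 1.22 RPM in shCTRL, so the filter favoured a fall. ARG2, the mitochondrial arginase that makes ornithine, fell the most after PYCR1, to 6.22 and 5.62 RPM in shCDCA8, against 36.1 and 38.2 RPM in shCTRL (-2.46). OAT, the ornithine aminotransferase, fell by 0.82 and the peptidase PEPD, which frees proline from dipeptides, by 0.67 on the log2 scale.

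GLUL encodes glutamine synthetase. It had 69.7 and 65.8 RPM in shCDCA8 libraries (3640 and 3638 reads), against 216 and 239 RPM in shCTRL libraries (11518 and 11159 reads). The shCDCA8 mean was 29.8% of the shCTRL mean (log2 fold change -1.73 ± 0.0971, adjusted p = 7.11e-08), and reads of GLUL can be shared with 6 annotated pseudogenes. GLS2, a glutaminase, fell (-1.07, adjusted p = 4.48e-05), as did GLUD1, the glutamate dehydrogenase (-0.80).

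GPT2, the mitochondrial alanine aminotransferase, makes alanine from pyruvate with nitrogen from glutamate. It had 18.9 and 21.6 RPM in shCDCA8, against 127 and 134 RPM in shCTRL, and the log2 fold change was -2.63 ± 0.108 (adjusted p = 7.53e-09). The values within each group lay close together and the groups far apart, with the shCDCA8 mean at 15.6% of the shCTRL mean. GPT, the cytosolic isoenzyme, was at 4.84 and 6.76 RPM in shCDCA8 and 3.88 and 5.29 RPM in shCTRL, overlapping between the groups (0.28 ± 0.173, adjusted p = 0.17). It was called higher in 7 of 12 alternatives, given here with their adjusted p-values. These were median-ratio scaling (0.54, adjusted p = 0.0189), scaling by reads in gene rows (0.0229), edgeR (0.0245), DESeq2 (0.0146), a replicate block (0.0405), and the fits without shCDCA8 replicate 1 (0.03) or shCTRL replicate 2 (0.0189). Of the 6 kept genes of glutamate, glutamine and alanine 4 fell and none rose (4 and 1 under median-ratio scaling). Without GLUL and GPT2 these were 2 of 4 genes, and 2 lower and 1 higher under median-ratio scaling. Over all kept genes 47.6% fell as deposited and 33.6% under median-ratio scaling.

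Glutamine also gives its amide nitrogen to other products, and those genes moved in both directions. Of 9 kept glutamine amidotransferase genes, ASNS among them, 5 fell and 3 rose (4 and 4 under median-ratio scaling). Without ASNS, 4 of 8 fell and 3 rose (3 and 4 under median-ratio scaling). PFAS (-1.17) of purine synthesis, CAD (-1.16) of pyrimidine synthesis and GFPT1 (-0.64) of hexosamine synthesis fell. PPAT, the first committed enzyme of purine synthesis, rose to 9.49 and 9.93 RPM in shCDCA8, against 7.03 and 5.65 RPM in shCTRL (0.55, adjusted p = 0.0044).

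CBS and CTH encode the enzymes of transsulfuration, by which homocysteine becomes cystathionine and then cysteine. CTH, the second of them, had 4.19 and 4.02 RPM in shCDCA8 (219 and 222 reads), against 20.1 and 21.6 RPM in shCTRL (1073 and 1010 reads). The shCDCA8 libraries held 19.7% of the shCTRL mean and the log2 fold change was -2.10 ± 0.128 (adjusted p = 1.28e-07). CBS, the first, had 118 and 141 RPM in shCDCA8 and 168 and 189 RPM in shCTRL (-0.46 ± 0.110, adjusted p = 0.0027). The groups did not overlap but lay close, with SDs of 16.6 RPM in shCDCA8 and 14.9 RPM in shCTRL. CBS was not called under median-ratio scaling (-0.15, adjusted p = 0.154), and GRCh38.p14 annotates a second locus with CBS as a synonym, whose part in the hg19-based value was not tested. CTH had 0.0356 and 0.0284 times the RPM of CBS in shCDCA8 libraries, against 0.120 and 0.114 times in shCTRL libraries.

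The methionine cycle lies upstream of the same route. Of 10 kept genes of the methionine cycle and transsulfuration 7 fell and none rose (5 and 1 under median-ratio scaling). Without CTH and CBS these were 5 of 8 genes, and 4 lower and 1 higher under median-ratio scaling. MAT2A, which makes S-adenosylmethionine, had 45.9 and 50.8 RPM in shCDCA8, against 102 and 112 RPM in shCTRL (-1.13, adjusted p = 2.64e-06). Its regulatory subunit MAT2B (-1.39), the hydrolase AHCY (-0.78), which releases homocysteine, and the sulfurtransferase MPST (-0.98) also fell.

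PCK2, the mitochondrial phosphoenolpyruvate carboxykinase, feeds carbon from oxaloacetate back towards glycolysis and serine. It had 9.99 and 11.4 RPM in shCDCA8 libraries (522 and 630 reads), against 158 and 182 RPM in shCTRL libraries (8446 and 8481 reads). The shCDCA8 mean was 6.29% of the shCTRL mean, the lowest share among the 9 genes, with a log2 fold change of -3.87 ± 0.116 (adjusted p = 1.23e-09). PCK1, the cytosolic isoenzyme known from liver and kidney, was at 0 in 3 libraries and at 0.0188 RPM in shCTRL replicate 1. Of 6 kept genes around phosphoenolpyruvate and pyruvate, PCK2 among them, 3 fell and none rose (3 and 2 under median-ratio scaling). Beside PCK2 these were the malic enzyme ME1 (-0.96) and the pyruvate carboxylase PC (-0.62), which was not called when libraries were scaled to their reads in the gene rows (adjusted p = 0.0555). ENO1 (0.02, adjusted p = 0.854) and PKM (0.10, adjusted p = 0.407) of glycolysis were not called, and both were called higher under median-ratio scaling (0.33 and 0.41).

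**Figure D3:**
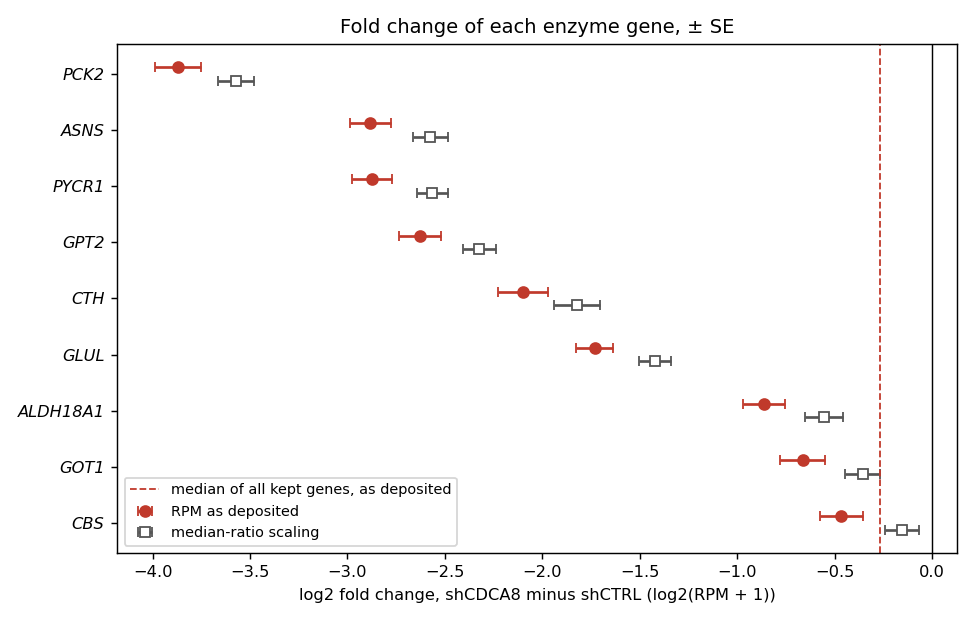
Log2 fold change of each enzyme gene (x axis, shCDCA8 minus shCTRL, on log2(RPM + 1)) with its SE, n = 2 against 2, for RPM as deposited (red circles) and after median-ratio scaling (open squares); the dashed line is the median of all kept genes. Scaling moves every gene towards 0 by a similar step, to -3.57 for PCK2 and to -0.15 for CBS.

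Isoenzymes and partner enzymes were compared as log2 ratios within each library, of RPM + 1, which depend on the library total only through the added 1. ASNS was set against ASNSD1, the asparagine synthetase domain gene, which is not counted as an isoenzyme here. Ratios are given for 6 pairs, and none for PCK2 to PCK1, because PCK1 was at or near 0. An exact two-sided permutation test of 2 against 2 libraries cannot give a p under 0.333, so no pair could pass on its own. The ratio of PYCR1 to PYCR3 was -0.11 ± 0.05 in shCDCA8 and 2.44 ± 0.02 in shCTRL (log2, SD, n = 2 each), a difference of -2.55 (exact p = 0.333). GPT2 to GPT differed by -2.91, ASNS to ASNSD1 by -3.42 and CTH to CBS by -1.63, each with an exact p of 0.333 and groups that did not overlap.

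Aspartate aminotransferases and the enzymes of pyrroline-5-carboxylate behaved otherwise. GOT1 to GOT2 was -0.44 ± 0.07 in shCDCA8 and -0.67 ± 0.00065 in shCTRL, a difference of 0.23 in the opposite direction (exact p = 0.333). ALDH18A1 to OAT was 3.01 ± 0.07 in shCDCA8 and 3.05 ± 0.07 in shCTRL, and the groups overlapped (exact p = 0.667).

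**Figure D4:**
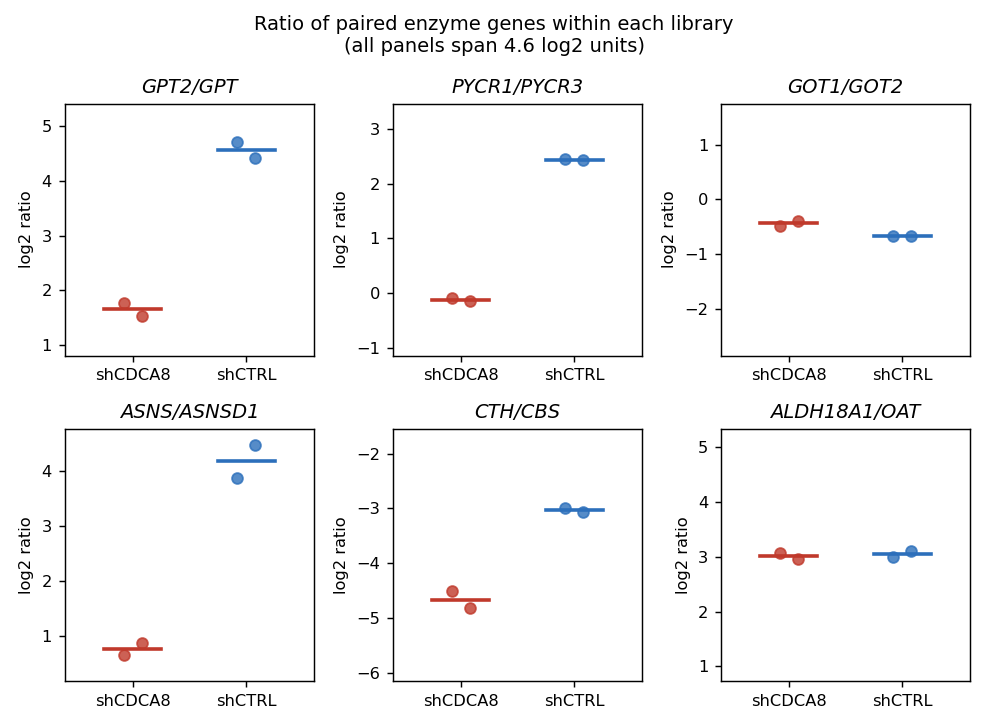
Log2 ratio of RPM + 1 between paired genes (y axis) in each shCDCA8 (red) and shCTRL (blue) library, with group means as lines; every panel spans the same range. PYCR1, GPT2, ASNS and CTH were lower relative to the genes paired with them in both shCDCA8 libraries, and ALDH18A1 to OAT overlapped between the groups.

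Serine synthesis and the folate enzymes are the closest neighbours in metabolism. Of 10 kept genes of that list 8 fell and none rose (7 and 0 under median-ratio scaling), with a median log2 fold change of -2.07, beside -2.10 for the 9 enzyme genes. PSAT1 (-2.97), MTHFD2 (-2.43), PSPH (-2.36) and SHMT2 (-2.09) fell, and SHMT1, the cytosolic counterpart of SHMT2, was not called (-0.10, adjusted p = 0.425). The difference between the lists was not tested.

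Genes that break down essential amino acids were divided. Of 15 kept genes 6 fell and 4 rose (5 and 6 under median-ratio scaling), with a median of -0.04. The branched-chain aminotransferases BCAT1 (-2.59) and BCAT2 (-1.13) fell. BCAT1 had 0.842 and 1.03 RPM in shCDCA8, against 12.8 and 8.84 RPM in shCTRL. It needed its shCTRL libraries to be kept, so the filter favoured a fall, and its log2 fold change was -3.38 with a pseudocount of 0.1. Leucine breakdown itself was divided, with IVD (-1.49) and MCCC2 (-1.87) lower and MCCC1 (0.46, adjusted p = 0.00297), the other subunit of the MCCC2 enzyme, and AUH (0.50, adjusted p = 0.00763) higher. HIBCH of valine breakdown rose to 11.98 and 11.3 RPM in shCDCA8, against 4.43 and 3.53 RPM in shCTRL (1.35), and DLD, a subunit shared by several dehydrogenase complexes, rose by 1.26.

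All 7 amino acid response factors fell, under median-ratio scaling too. ATF4, whose known targets include most of the 9 enzyme genes, had 131 and 125 RPM in shCDCA8, against 662 and 677 RPM in shCTRL (-2.38 ± 0.0858, adjusted p = 3.21e-09). Its partners CEBPB (-1.75) and CEBPG (-1.17) and the targets TRIB3 (-2.07) and DDIT3 (-1.62) were lower as well, and EIF2AK4, which encodes GCN2, fell by 0.67. ATF4 activity is set largely by translation, which RNA levels do not show. Whether the lower ATF4 RNA had a part in the falls of the enzyme genes was not tested.

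**Figure D5:**
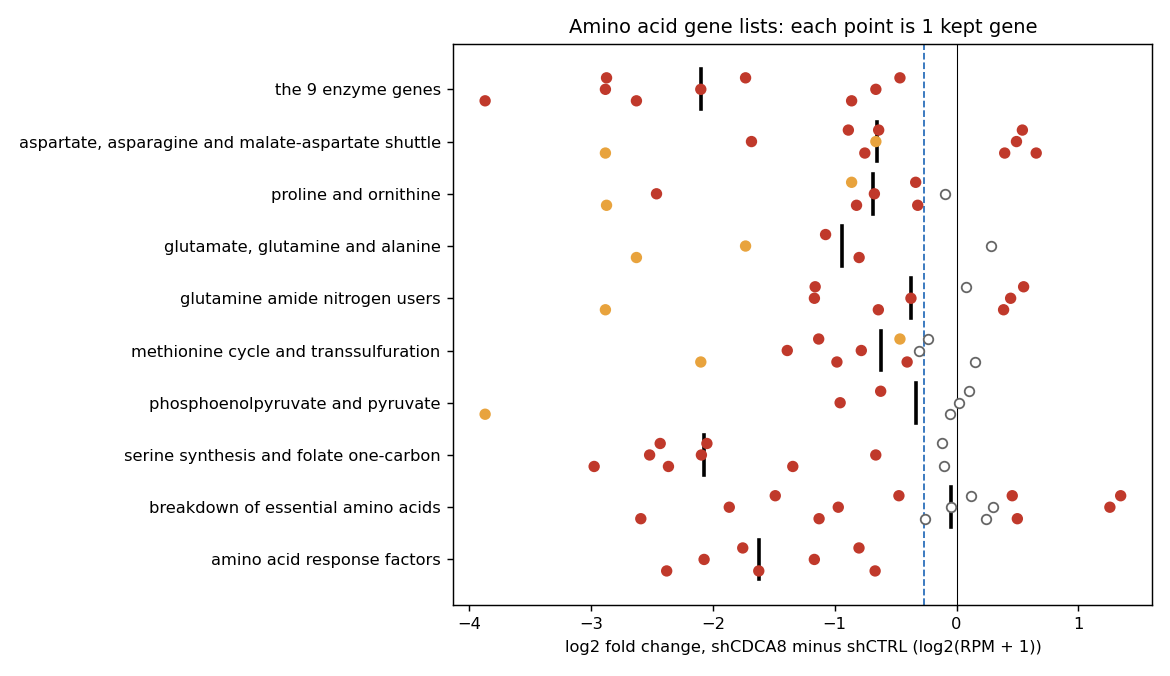
Log2 fold change (x axis, shCDCA8 minus shCTRL) of each kept gene reported here, in the lists named on the y axis. Filled points were called (orange marks the 9 enzyme genes inside other lists) and open points were not. Black bars are list medians and the dashed line is the median of all kept genes. Kept genes that are not reported here have no point but enter the list medians. The 9 enzyme genes (-2.10) and the serine and folate list (-2.07) have the lowest medians, and the list of essential amino acid breakdown spreads to both sides of 0.

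The genes whose profiles over the 4 libraries lay nearest to each enzyme gene were sought among 8494 genes averaging 5 RPM or more, by Euclidean distance of log2(RPM + 1) centred on each gene's mean. With 2 groups this distance follows mostly the size of the fold change. Nearest to PCK2 were SLC45A3, a prostate-enriched transporter (distance 0.0259), and SLC6A9, a glycine transporter (0.144). FAM110B (0.092) and LOXL1-AS1 (0.115) were nearest to ASNS, CAPN5 (0.0744) and TUB (0.0959) to PYCR1, and SPATA20 (0.0755) and LINC00086 (0.122) to GPT2. MDK (0.0396) and FXYD3 (0.0461) were nearest to CTH, H1F0 (0.0235) and RFX5 (0.0507) to GLUL, and MFGE8 (0.0219) and SKP2 (0.0292) to ALDH18A1. GTF3C2 (0.0252) and SF3A2 (0.0284) lay nearest to GOT1, and MADD (0.0157) and LMTK2 (0.0226) to CBS.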

How the data were processed

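PolyA RNA of 2 shCDCA8 and 2 shCTRL libraries of C4-2 cells was analysed from a deposited table of RPM, reads per gene scaled by the authors to a library total, per the file headers. TopHat, HTSeq, edgeR, cutadapt and the build hg19 are named, without versions or roles, per the submitters' processing notes; which annotation was used is not given there. All values above 0 were whole multiples of 1 step per library (100% within 0.01 of a whole read), so whole reads were recovered: 17406425 and 18931009 in shCDCA8 and 21920570 and 20380764 in shCTRL gene rows. No column belonged to another sample.

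Values were tested as log2(RPM + 1) with limma 3.58.1 in R 4.3.3 (eBayes with trend, two-sided), on genes that reached 1 RPM in 2 or more libraries, and fold changes on this scale understate changes of low genes. Calls are Benjamini-Hochberg adjusted p under 0.05 over 11833 genes. edgeR 4.0.16, which called 7807 genes on the recovered reads, and DESeq2 1.42.0 were alternatives, as were other pseudocounts, filters, scalings, a replicate term and leaving out each library. The fit was tested on simulated data. No replicate pair looked like a single library deposited again, since chi-square divided by its degrees of freedom was 10.01 in shCDCA8 and 8.08 in shCTRL.

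The 9 genes, the gene pairs and the other lists were chosen with earlier results of these data known. Named genes are the 9, CDCA8, ATF4, the paired genes, up to 4 called genes of smallest p per amino acid list, and the 2 nearest genes of each enzyme gene. Markers and MDH1, SLC25A11, SLC25A13, PRODH, ENO1, PKM, SHMT1, HIBCH, DLD, MCCC1, AUH, CEBPG and EIF2AK4 were named outside this rule, after their values were seen. SQOR and PYCR3 were matched by their older symbols SQRDL and PYCRL, and PRODH2, CDO1, ME3, PTPRC and CDH5 were not analysed here. Some genes of these lists and pairs enter the counts but are not reported here.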

Additional observations from a re-analysis of the deposited data

How the results depend on the processing

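Over 12 alternatives, 8 of the 9 enzyme genes kept their direction and their call, with log2 fold changes from -3.98 to -3.56 for PCK2 and from -0.76 to -0.34 for GOT1, the smallest of them. CBS stayed negative in all 12 but was not called in 4, median-ratio scaling (-0.15), scaling by reads in gene rows (-0.14), edgeR (-0.16, adjusted p = 0.169) and DESeq2 (-0.15, adjusted p = 0.237); its adjusted p ran from 2.97e-06 to 0.237. All 4 rescale the libraries, and in each the calls over all kept genes split about evenly between lower and higher. The count of enzyme genes that fell was 8 there and 9 in the other 8 alternatives. Over all kept genes 6717 to 7683 were called when 1 library was left out, where the lone library of a group is assumed to vary like the other group, and 9 enzyme genes fell each time. Calls split into 3873 lower and 3985 higher when scaled by reads in gene rows, 3956 and 3851 with edgeR and 3575 and 3639 with DESeq2. Same-numbered libraries share only a number; their deviations correlated at 0.31, and a replicate block gave 8901 calls and the same 9 falls, and called GPT higher (adjusted p = 0.0405).

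Of 744 fold changes of named genes under alternatives, 713 kept direction and side of the threshold. 1 turned its direction, PYCR3, which was 0.00124 when scaled by reads in gene rows. The ALDH18A1 to OAT ratio turned to 0.0784 with a pseudocount of 0.1 and ran from -0.0915 to 0.0109 when 1 library was left out. Depth limits low genes most: CTH, at 219 and 222 reads in shCDCA8 libraries, had the fewest of the 9 enzyme genes, close to OAT (210 and 212).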
